A study of Mus musculus with 6 samples.

Results

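Lgr5 and the R-spondin axis were examined in tail tendon: the 3 LGR receptors Lgr4, Lgr5 and Lgr6, the 4 R-spondin ligands Rspo1 to Rspo4, and the 2 membrane E3 ubiquitin ligases Znrf3 and Rnf43. These 9 genes were found by symbol among the 44788 symbols of the count table, and 5 of them had enough counts to be tested with 14550 genes in all. Lgr5 was chosen on the contrast described here, as one of the largest rises in the knockout, so its values are given as a description with no test. The other 8 genes were taken as its relatives and pathway partners.

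R-spondins are secreted proteins that amplify Wnt signaling. ZNRF3 and RNF43 are ubiquitin ligases of the cell surface that remove Frizzled Wnt receptors. An R-spondin bound to both an LGR receptor and one of these ligases draws the ligase off the membrane, so that more Frizzled remains and beta-catenin signaling is stronger at a given dose of Wnt. Lgr5 itself is a Wnt target gene and is best known as a marker of stem cells in the gut and the hair follicle, and Lgr6 marks a stem cell population of the skin.

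Bulk RNA sequencing was performed on tail tendon of 3 wild-type (WT) and 3 Mkx-/- samples. The mice were C57BL/6 and 3 weeks old by the labels, and the study's text gives an older age. The Mkx-/- line was obtained from another laboratory, and which exons its allele lacks is not given in the sources used here. The study's methods call the Mkx-/- mice transgenic without naming a promoter or Cre driver, and no treatment is described for either group. The labels do not say how many animals gave each sample, so the p-values measure the spread between these samples, which may be technical in part.

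The libraries held between 10835070 and 14160301 counts. Mkx, which encodes the tendon transcription factor Mohawk, had 1825, 1381 and 1685 counts across the WT replicates and 620, 589 and 491 across the Mkx-/- replicates, that is 138 ± 4.92 against 45.7 ± 9.68 normalized CPM (counts scaled to a common library size, mean ± SD, n = 3). The log2 fold change was -1.60 (SE 0.16, edgeR quasi-likelihood test, adjusted p = 0.00183), so the targeted gene was lower in every library labelled Mkx-/- but not at 0. A count per gene does not show which exons the remaining reads came from. The tissue label was met in both groups: tendon genes were abundant, with 1083 and 1065 CPM of Tnmd, a membrane protein of mature tendon cells, in WT and Mkx-/- libraries. Tendon genes were not all as level as Tnmd. Scx had 37.0 ± 18.2 CPM in WT and 16.8 ± 3.10 in Mkx-/- libraries (edgeR adjusted p = 0.106). The collagen I genes Col1a1 and Col1a2 together with Sparc took 42.0 to 48.5% of all counts in WT and 28.3 to 34.8% in Mkx-/- libraries.

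Lgr5 was at the limit of detection in WT tendon and clearly present in Mkx-/- tendon. Its counts were 0, 6 and 10 in WT replicates 1, 2 and 3, and 161, 126 and 198 in the matching order of Mkx-/- replicates. In CPM these were 0, 0.589 and 0.801 against 14.7, 8.85 and 15.7. Every Mkx-/- library lay far above every WT library, the lowest of them, replicate 2, included. The group means were 0.463 ± 0.415 and 13.1 ± 3.71 CPM (SD, n = 3), a ratio of 28.3. The counting error alone allows a ratio of summed counts from 17.3 to 50.1 (exact 95% interval). Because 1 WT library was at 0 counts, which allows up to 0.236 CPM there, the WT level is known only roughly.

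The fitted log2 fold change of Lgr5 was 4.81 (SE 0.57) and had rank 5 from the top among the 14550 genes tested. Just above it were Plac9a (log2 fold change 4.87), Myh11 (4.84) and Cnr1 (4.82), and just below it were Htra4 (4.81), Slurp1 (4.56) and Rbm24 (4.46). Myh11 is the smooth muscle myosin heavy chain and Cnr1 the cannabinoid receptor CB1. Lgr5 passed the filter on low counts through the Mkx-/- libraries alone, as 0 of the 3 WT libraries reached the count level that the filter asks for.

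**Figure D1:**
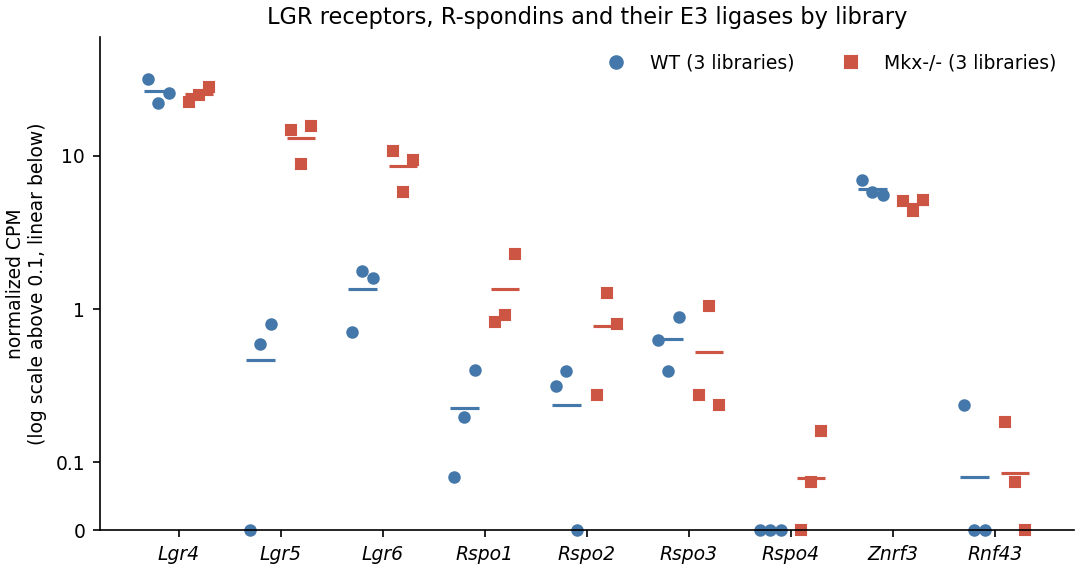
Normalized CPM (vertical axis, logarithmic above 0.1 and linear below) of the 9 genes in each of the 3 WT (circles) and 3 Mkx-/- libraries (squares), with lines at the group means. Lgr5, Lgr6 and Rspo1 have all Mkx-/- points above all WT points, as do 14.6% of all genes tested. Znrf3 has them all below, as do 13.6%, while the points of Lgr4 overlap.

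Lgr6 rose with Lgr5. It had 9, 18 and 20 counts in WT and 117, 83 and 118 in Mkx-/- tendon, or 0.709, 1.77 and 1.60 CPM against 10.7, 5.83 and 9.35 CPM. Again the groups did not overlap, as was so for 14.6% of the genes tested with the Mkx-/- libraries higher. Replicate 2 was again the lowest of the Mkx-/- libraries. The means were 1.36 ± 0.569 and 8.63 ± 2.52 CPM (SD, n = 3), with a log2 fold change of 2.67 (SE 0.37, edgeR quasi-likelihood test, adjusted p = 0.00652), rank 91 of all genes tested. In the background, 1.89% of the genes tested were called higher in Mkx-/- tendon, that is 275 genes that passed both an adjusted p of 0.05 and a log2 fold change of 1. Among the members other than Lgr5, Lgr6 was the 1 called higher of the 4 that could be tested, and 0 were called lower, against a background of 1.33% (193 genes). Lgr6 reached the filter level on low counts in 3 Mkx-/- libraries but in only 2 WT libraries. It was thus tested through the group where it is high, so the count of 1 is a description only. Scaling by library totals alone turned these 275 and 193 calls over all genes into 711 higher and 154 lower, and Rspo1 then joined Lgr6. None of the 4 was lower at an unadjusted p under 0.05, and DESeq2 also called 0 lower.

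Lgr4, the widely expressed receptor of the family, was the most abundant member in both genotypes and was not called in either direction. Its counts were 403, 225 and 322 in WT and 246, 355 and 354 in Mkx-/- libraries, which gave 31.7, 22.1 and 25.8 against 22.5, 24.9 and 28.1 CPM. The groups overlapped, with all Mkx-/- values inside the WT range. The means were 26.5 ± 4.88 and 25.2 ± 2.77 CPM (SD, n = 3), and the log2 fold change was -0.08 (SE 0.16, edgeR quasi-likelihood test, adjusted p = 0.827). Its sign turned to 0.17 when libraries were scaled by their totals alone, a scaling that moved the median of all genes by 0.25, and to 0.07 without WT replicate 1. The differences of Lgr5 and Lgr6 kept their sign under these settings.

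The receptor genes lie on different chromosomes. In the mm9 build, Lgr5 spans chr10:114887367-115024836 on the minus strand, Lgr6 spans chr1:136882925-137001853 on the minus strand, and Lgr4 spans chr2:109757804-109854414 on the plus strand. No exon of a member overlaps an exon on the opposite strand in the GENCODE vM1 annotation. The longest run of identical bases between transcripts of 2 receptors was 18 bases, between Lgr5 and Lgr6.

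Sequences upstream of the gene start are shown for Lgr6 and Lgr4, a receptor that was called higher and one that was not, so that the letters before both starts can be compared. They are the 250 bases before the RefSeq start in GRCm38.p6, at chr1:135105277-135105526 on the minus strand for Lgr6 and at chr2:109917397-109917646 on the plus strand for Lgr4, each written 5′ to 3′ along the gene. The RefSeq table held 5 of the 9 members (Lgr4, Lgr6, Rspo1, Rspo4 and Rnf43), and Lgr5, Rspo2, Rspo3 and Znrf3 were not in it.
Lgr6: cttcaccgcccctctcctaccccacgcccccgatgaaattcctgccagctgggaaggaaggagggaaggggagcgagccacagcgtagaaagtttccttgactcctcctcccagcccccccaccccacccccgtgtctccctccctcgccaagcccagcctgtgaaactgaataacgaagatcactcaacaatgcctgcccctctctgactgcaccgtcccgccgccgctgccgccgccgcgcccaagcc
Lgr4: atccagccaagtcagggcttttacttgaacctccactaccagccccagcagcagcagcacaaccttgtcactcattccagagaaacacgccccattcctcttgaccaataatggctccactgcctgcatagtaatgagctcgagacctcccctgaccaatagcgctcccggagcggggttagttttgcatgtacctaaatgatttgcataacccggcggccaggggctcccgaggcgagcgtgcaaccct
Neither holds one of the TCF/LEF cores, which are AACAAAG and also ATCAAAG and also TACAAAG and also TTCAAAG, the letters bound by the DNA-binding partners of beta-catenin, on either strand, and 0 were found upstream of Rspo1, Rspo4 and Rnf43. Of 32851 upstream stretches of this length in the table, 14.8% hold at least 1. A missing match says only that these letters are not in these windows. The G and C content was 65.2% upstream of Lgr6 and 55.6% upstream of Lgr4.

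To compare levels between genes, CPM were divided by the length of the union of annotated exons in kilobases (kb). In WT tendon the order of levels was Lgr4 (4.51 CPM per kb), Znrf3 (0.774), Lgr6 (0.357), Rspo3 (0.265), Rspo1 (0.116), Rspo2 (0.0710), Lgr5 (0.0451), Rnf43 (0.0120) and Rspo4 (0). Lgr4 and Znrf3 stood apart, and from Lgr6 downwards each gene's range over the 3 libraries overlapped that of the next. In Mkx-/- tendon the order of levels was Lgr4 (4.28 CPM per kb), Lgr6 (2.27), Lgr5 (1.28), Rspo1 (0.694), Znrf3 (0.614), Rspo2 (0.234), Rspo3 (0.218), Rspo4 (0.0322) and Rnf43 (0.0129). There the ranges of Lgr5 and Rspo1, of Rspo1 and Znrf3, of Rspo2 and Rspo3, and of Rspo4 and Rnf43 overlapped. The order of Lgr5 and Lgr6 in Mkx-/- tendon rests on the length used, as the exon union of Lgr5 is 10264 bases and its coding sequence 2724, against 3804 and 2904 for Lgr6. Per kb of coding sequence Lgr5 (4.81 CPM) was above Lgr6 (2.97 CPM). Other neighbours changed places with the length as well: per kb of coding sequence Rspo3 (0.761 CPM) was above Lgr6 (0.468) and Rspo2 (0.322) above Rspo1 (0.282) in WT, and Znrf3 (1.77) above Rspo1 (1.69) in Mkx-/- tendon.

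The receptor RNA was made up differently in the 2 genotypes. Summed per exon length, the 3 receptors came to 4.91 ± 0.654 CPM per kb in WT and 7.83 ± 1.08 in Mkx-/- tendon (SD, n = 3). Lgr4 made up 91.4 ± 4.65% of that sum in WT and 55.2 ± 8.29% in Mkx-/- tendon. Lgr5 and Lgr6 together made up 3.34, 12.2 and 10.2% in WT replicates and 52.6, 36.1 and 45.5% in Mkx-/- replicates. Per coding length these shares were 2.15, 9.64 and 8.56% against 53.6, 37.6 and 47.8%, so either length gives WT tendon with almost only Lgr4 and Mkx-/- tendon with a large share of the other receptors. Lgr5 is part of these sums, so they are a description with no test.

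**Figure D2:**
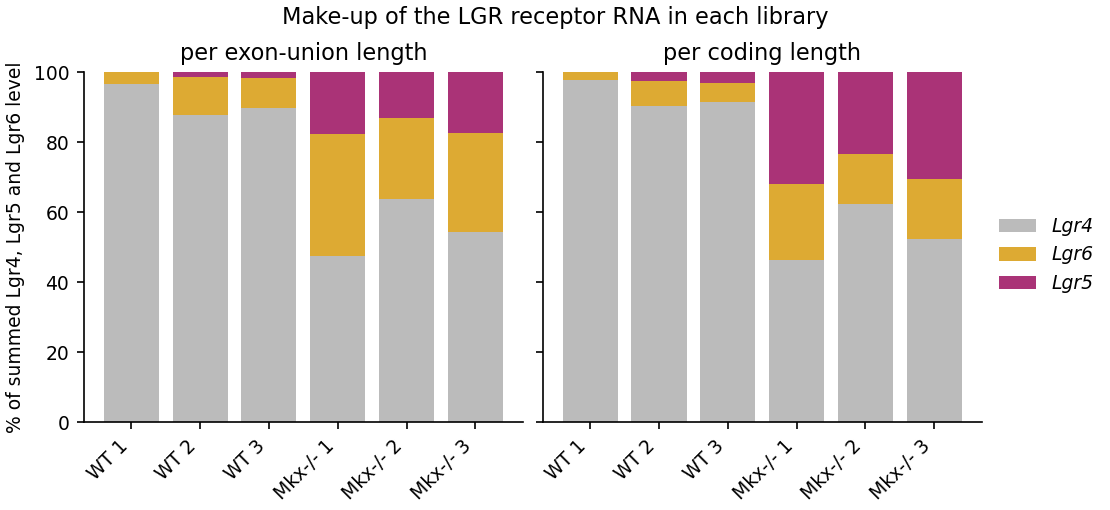
Stacked bars of the percent of summed receptor level from Lgr4, Lgr6 and Lgr5 in each library, by level per exon-union length (left) and per coding length (right). In the left panel Lgr4 takes 87.8 to 96.7% in WT and 47.4 to 63.9% in Mkx-/- libraries.

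Of the ligands, Rspo1 showed the widest separation between the genotypes, at low counts. It had 1, 2 and 5 counts in WT and 9, 13 and 29 in Mkx-/- libraries, or 0.0788, 0.196 and 0.401 against 0.824, 0.913 and 2.30 CPM. The groups did not overlap, as was so for 14.6% of the genes tested with the Mkx-/- libraries higher. The means were 0.225 ± 0.163 and 1.35 ± 0.827 CPM (SD, n = 3) and the log2 fold change was 2.52 (SE 0.66), which missed the threshold in edgeR (adjusted p = 0.0678) and passed it in DESeq2 (adjusted p = 0.0404). The range of adjusted p over the alternatives was 0.0196 to 0.204. Rspo1 passed the filter on low counts through the Mkx-/- libraries alone and could not be tested without Mkx-/- replicate 2.

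Rspo2, Rspo3 and Rspo4 were below the filter. Rspo2 had 4, 4 and 0 counts in WT and 3, 18 and 10 in Mkx-/- libraries, and Rspo3 had 8, 4 and 11 counts in WT and 3, 15 and 3 in Mkx-/- libraries. Both genes' groups overlapped. Rspo4 had 0 counts in each WT library and 0, 1 and 2 in the Mkx-/- libraries, no more than the 3 counts that a count of 0 allows. DESeq2, which tests such genes, gave adjusted p = 0.383 for Rspo2 and 0.937 for Rspo3. The ratio of the group means (Mkx-/- over WT) was 3.30 for Rspo2 and 0.823 for Rspo3. A related ratio, of summed counts scaled by summed library sizes, had 95% intervals from counting error alone. These were 1.63 to 9.14 for Rspo2 and 0.450 to 1.62 for Rspo3. The 3 Mkx-/- libraries ranged from 0.275 to 1.26 CPM for Rspo2, a spread that its interval does not include.

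Znrf3 was expressed at a moderate level in both genotypes. Its counts were 89, 59 and 69 in WT and 55, 62 and 65 in Mkx-/- libraries, or 7.01, 5.79 and 5.53 against 5.04, 4.36 and 5.15 CPM. All Mkx-/- values were below all WT values, as was so for 13.6% of the genes tested. The gap was small, with means of 6.11 ± 0.792 and 4.85 ± 0.431 CPM (SD, n = 3) and a log2 fold change of -0.34 (SE 0.19, edgeR quasi-likelihood test, adjusted p = 0.341). Rnf43, the other ligase, had 3, 0 and 0 counts in WT and 2, 1 and 0 in Mkx-/- libraries and never exceeded the floor of 3 counts, which is 0.211 to 0.294 CPM. Znrf3 was thus the ligase gene with measurable RNA at this depth. Znrf3 and Rspo1 transcripts share a run of 38 bases, the longest between any members.

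**Figure D3:**
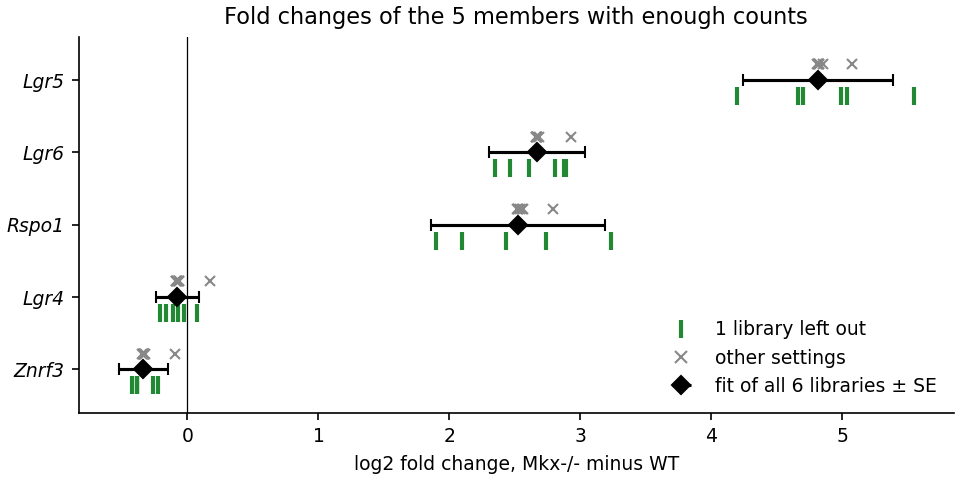
Log2 fold change (Mkx-/- minus WT, horizontal axis) of the 5 members that were tested: black diamonds with SE are from all 6 libraries, green ticks leave 1 library out and grey crosses are the other settings. Lgr5 ranged from 4.19 to 5.55, Lgr6 from 2.35 to 2.93 and Rspo1 from 1.90 to 3.24, all to the right of 0, while the values of Lgr4 lie on both sides of it.

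The genes whose profile over the 6 libraries was most like that of Lgr5 were Bace2 (Pearson r = 0.998), Mnt (0.998), Wtip (0.997), Map6 (0.997) and Tnfrsf11b (0.997), among 10294 genes that averaged 5 CPM or more. Of these 10294 genes, 156 reached an r of 0.95. The libraries fall into 2 groups by genotype, so r is given as a description only. The changes of these genes were much smaller than that of Lgr5, with log2 fold changes from 0.53 for Wtip to 1.07 for Tnfrsf11b. Tnfrsf11b, which encodes the decoy receptor osteoprotegerin, had 2.84, 4.12 and 4.49 CPM in WT and 7.97, 7.24 and 8.88 CPM in Mkx-/- libraries. Its lowest library in each group was that in which Lgr5 was lowest. On the same scale the r with Lgr5 was 0.991 for Lgr6, 0.930 for Rspo1, -0.863 for Znrf3 and -0.391 for Lgr4.

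Since Lgr5 and Znrf3 sit within the Wnt pathway, its other genes were read from the same fit. Of 15 Wnt/beta-catenin target genes 11 could be tested, and 1 was called higher and 1 lower, against 1.89% and 1.33% of all genes tested. Their median log2 fold change was 0.23, against -0.0037 over all genes tested. Cd44, a hyaluronan receptor, rose from 21.1 ± 2.97 to 58.7 ± 19.1 CPM (SD, n = 3; log2 fold change 1.47, SE 0.23, edgeR adjusted p = 0.0122). Without WT replicate 2 the number called higher was 0. Tnfrsf19, known as Troy and also a gene of Lgr5+ stem cells, fell from 7.31 ± 2.33 to 1.51 ± 0.280 CPM (log2 fold change -2.25, SE 0.31, edgeR adjusted p = 0.0062). Of the 11 tested, 8 had a log2 fold change above 0, against 49.5% of all genes tested. All Mkx-/- libraries lay above all WT libraries in 2 and below them in 3, against 14.6% and 13.6% of all genes.

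Axin2, the most widely used readout of beta-catenin signaling and named here after its values were seen, had 21.7, 18.6 and 18.5 CPM in WT and 18.2, 23.6 and 18.3 CPM in Mkx-/- libraries. Its groups overlapped and its log2 fold change was 0.03 (SE 0.15, edgeR adjusted p = 0.926). Nkd2, a feedback inhibitor, differed by 0.98 on the log2 scale (edgeR adjusted p = 0.105) and Myc by -0.67 (edgeR adjusted p = 0.0977), neither past the threshold. Sp5 and Dkk1 had no count in any library. Notum, which encodes a secreted enzyme that inactivates Wnt proteins, was below the filter at 0.0594 ± 0.0522 CPM in WT and 0.607 ± 0.286 in Mkx-/- tendon.

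Among the 16 Wnt receptors and co-receptors, on which the ligases act, 15 were tested, with a median log2 fold change of 0.06. Of these, 1 was called higher and 0 lower, against 1.89% and 1.33% of all genes tested. Fzd1 rose from 91.5 ± 5.89 to 191 ± 42.5 CPM (SD, n = 3; log2 fold change 1.06, SE 0.17, edgeR adjusted p = 0.0138). Ror2 (log2 fold change 0.81, edgeR adjusted p = 0.0323) and Fzd9 (-0.78, edgeR adjusted p = 0.0388) passed the adjusted p but not the fold. The co-receptor genes Lrp5 and Lrp6, named after their values were seen, differed by -0.09 and -0.01 on the log2 scale (edgeR adjusted p = 0.818 and 0.975). Of the 15, 5 had all Mkx-/- libraries above all WT libraries and 2 had them below, against 14.6% and 13.6% of all genes.

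Of 21 genes for Wnt ligands and their secretion 11 were tested. Among these, 1 was called higher and 2 lower, against 1.89% and 1.33% of all genes tested. Wnt16 fell from 14.6 ± 0.573 to 2.14 ± 0.672 CPM (SD, n = 3; log2 fold change -2.74, SE 0.23, edgeR adjusted p = 0.00107), and Wnt4 from 1.12 ± 0.192 to 0.248 ± 0.113 CPM (log2 fold change -2.18, SE 0.46, edgeR adjusted p = 0.035). Wnt4 passed the filter on low counts through the WT libraries alone and was near the floor of 3 counts in Mkx-/- libraries, so its fold is imprecise. Wnt2 rose from 2.55 ± 0.260 to 5.53 ± 1.14 CPM (log2 fold change 1.12, SE 0.24, edgeR adjusted p = 0.0353). The ligand list thus had genes called in both directions, and its median log2 fold change was -0.04.

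Of 10 secreted Wnt antagonists 8 were tested, and 2 were called higher and 0 lower, against 1.89% and 1.33% of all genes tested. The median log2 fold change was 1.05, with 7 of the 8 above 0, against 49.5% of all genes tested. Sfrp2, named after its values were seen, was below the filter, at 1.11 ± 0.516 CPM in WT and 0.280 ± 0.164 in Mkx-/- tendon (SD, n = 3). Sfrp4, a decoy that binds Wnts, rose from 3.02 ± 0.261 to 8.34 ± 2.37 CPM (SD, n = 3; log2 fold change 1.46, SE 0.25, edgeR adjusted p = 0.0168). Sostdc1, which binds Wnt co-receptors and BMPs, rose from 8.38 ± 2.38 to 20.7 ± 6.93 CPM (log2 fold change 1.31, SE 0.28, edgeR adjusted p = 0.0369). Of the 8, 3 (Sfrp4, Sostdc1 and Frzb) had all Mkx-/- libraries above all WT libraries and 0 had them below, against 14.6% and 13.6% of all genes tested.

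The 22 genes of the beta-catenin relay and destruction complex were all tested, with a median log2 fold change of 0.09. By edgeR 0 were called in either direction, against 1.89% of all genes called higher and 1.33% lower. Of the 22, 5 had all Mkx-/- libraries above all WT libraries and 3 had them below, against 14.6% and 13.6% of all genes. Tle4, a transcriptional co-repressor, passed the adjusted p but not the fold (log2 fold change -0.76, edgeR adjusted p = 0.0275), and its relative Tle3 passed neither (0.54, edgeR adjusted p = 0.052).

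R-spondins also bind heparan sulphate proteoglycans, and among 13 other partners of R-spondins and LGRs 11 were tested. Of the 11, 2 were called higher and 0 lower, against 1.89% and 1.33% of all genes tested. Both were glypicans, proteoglycans held on the cell surface by a lipid anchor. Gpc1 had 27.4, 35.8 and 29.5 CPM in WT and 83.0, 89.3 and 105 CPM in Mkx-/- libraries (log2 fold change 1.58, SE 0.15, edgeR adjusted p = 0.00149). Gpc4 had 19.8, 27.9 and 29.2 CPM in WT and 80.3, 62.1 and 68.2 CPM in Mkx-/- libraries (log2 fold change 1.46, SE 0.18, edgeR adjusted p = 0.00393). In both genes the groups were far apart compared with the spread inside them. Gpc3 passed the adjusted p but not the fold (log2 fold change 0.78, edgeR adjusted p = 0.0164). The 4 syndecan genes had log2 fold changes from -0.03 to 0.13. Tnfsf11, which encodes the LGR4 ligand RANKL, had no count in any library, and Ndp, for the LGR4 ligand norrin, differed by 0.99 on the log2 scale (edgeR adjusted p = 0.196).

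**Figure D4:**
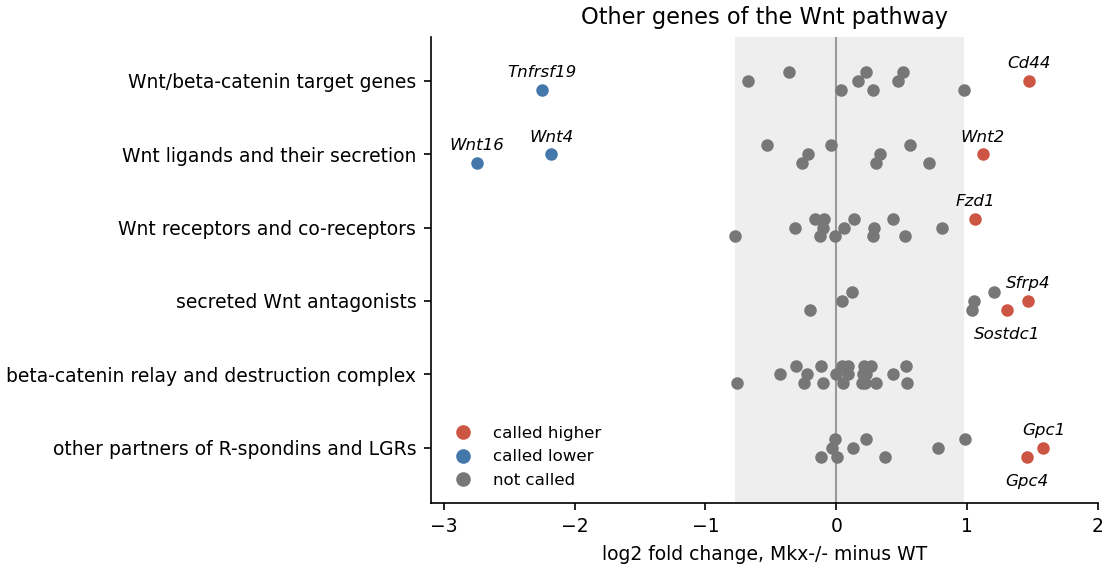
Log2 fold change (Mkx-/- minus WT, horizontal axis) of each tested gene in 6 lists of Wnt pathway genes, red where called higher, blue where called lower and grey otherwise. The line is the median of all genes tested and the grey band holds their 5th to 95th percentile (-0.77 to 0.97); most genes lie in the band, and the 10 named ones are those called.

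Among 5 other receptors of the wider LGR family, Tshr was the 1 that could be tested and had a log2 fold change of 0.0021 (SE 0.34). Fshr, Rxfp1 and Rxfp2 had no count in any library. Of 10 other genes known from Lgr5+ epithelial stem cells, 7 were tested. By edgeR 0 were called in either direction, against 1.89% of all genes called higher and 1.33% lower. All Mkx-/- libraries lay above all WT libraries in 2 of the 7, Smoc2 and Prom1, and below them in 0, against 14.6% and 13.6% of all genes. Prom1 reached the filter level in 1 WT and 3 Mkx-/- libraries, so it was tested through the group where it is high. The count of 2 is thus a description only. Smoc2, a matrix protein, had 65.3, 65.9 and 77.2 CPM in WT and 98.2, 123 and 186 CPM in Mkx-/- libraries, which passed the adjusted p but not the fold (log2 fold change 0.97, SE 0.22, edgeR adjusted p = 0.0465). Olfm4, a defining gene of intestinal Lgr5+ cells, had 1 count in all 6 libraries together.

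The marker genes of other cell types moved with the genotype as well, and in bulk tissue fewer cells of a type and less RNA per cell cannot be told apart. The list closest to known Lgr5 and Lgr6 cells is that of hair follicle and epidermis. Its 14 genes summed to 15.1, 78.6 and 103 CPM in WT and 122, 96.7 and 175 CPM in Mkx-/- libraries. Of the 11 tested, 1 was called higher and 0 lower, against 1.89% and 1.33% of all genes tested. That gene, Krt17, had 0, 0.589 and 0.561 CPM in WT and 6.32, 5.48 and 5.31 CPM in Mkx-/- libraries, and it passed the filter on low counts through the Mkx-/- libraries alone. Krt5, the keratin of basal skin cells, had 0, 2.75 and 0.721 CPM in WT and 6.96, 5.48 and 5.95 CPM in Mkx-/- libraries (edgeR adjusted p = 0.099).

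Of the 11 tested, 5 had all Mkx-/- libraries above all WT libraries, namely Krt5, Krt14, Krt15, Krt17 and Dsp, and 1, Trp63, had them all below, against 14.6% and 13.6% of all genes tested. Krt5, Krt14, Krt15 and Krt17 reached the filter level in 3 Mkx-/- libraries but in fewer than 3 WT libraries. They were thus tested through the group where they are high, so the count of 5 is a description only. WT replicate 1 was at 0 for Krt5, Krt15 and Krt17 as for Lgr5. The inner root sheath keratin Krt71 had 0.158, 24.1 and 39.4 CPM in WT and 43.7, 35.8 and 72.3 CPM in Mkx-/- libraries, where the groups overlapped. Trp63, a transcription factor of basal skin cells, was 15.5 ± 4.42 CPM in WT and 7.66 ± 2.88 in Mkx-/- tendon (SD, n = 3), and Dsg3 had 1 count in all 6 libraries together. In the Mkx-/- group the sum of the list was lowest in replicate 2 and highest in replicate 3, as was Lgr5, and in the WT group both were lowest in replicate 1. Most of the Mkx-/- sums lay in Krt71, Krt25 and Krt27 (means of 50.6, 23.9 and 16.7 CPM). Within the Mkx-/- group Krt5, Krt15 and Krt17 were highest in replicate 1 and Krt14 in replicate 3. The part of skin or hair RNA in the values of Lgr5 and Lgr6 was not tested.

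Of the 24 skeletal muscle fibre genes 7 were called higher and 0 lower, against 1.89% and 1.33% of all genes tested. Of the 7, Actn2, Tnni1 and Tcap reached the filter level in 3 Mkx-/- libraries but in fewer than 3 WT libraries. They were thus tested through the group where they are high, so the count of 7 is a description only. Together the 24 summed to 489, 112 and 327 CPM in WT and 3461, 1676 and 698 CPM in Mkx-/- libraries. Within the Mkx-/- group, in the order of replicates 1, 2 and 3, these sums stood beside 14.7, 8.85 and 15.7 CPM of Lgr5 and 10.7, 5.83 and 9.35 CPM of Lgr6. The library with the highest muscle sum had the highest Lgr6, and the one with the lowest had the highest Lgr5. Satellite cell genes, those of the muscle stem cell, summed to 1.18 to 2.48 CPM in WT and 2.84 to 3.44 in Mkx-/- libraries, with Pax7 at 0 in all WT libraries and at most 0.0916 CPM in a Mkx-/- library.

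**Figure D5:**
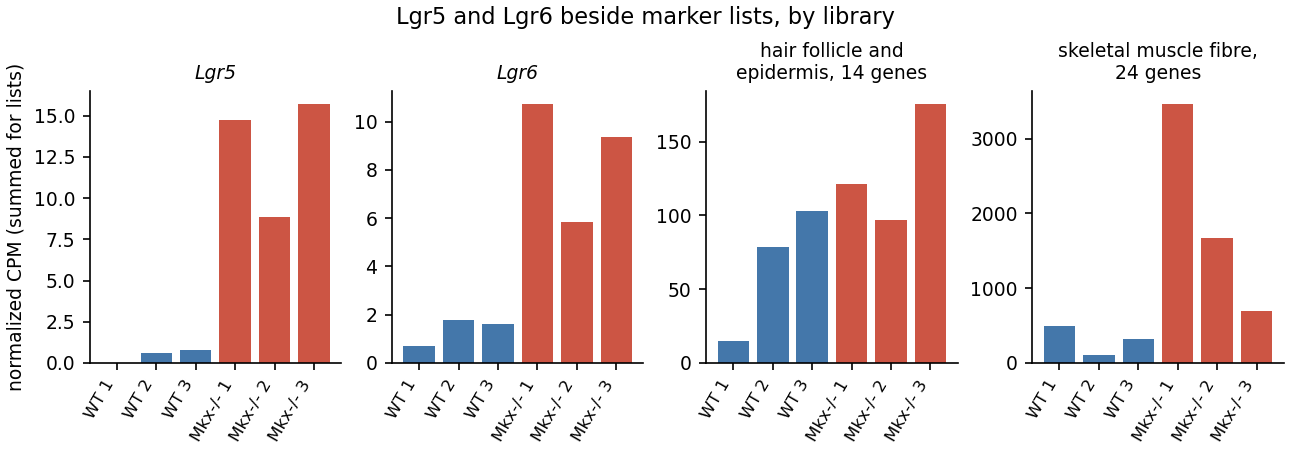
Normalized CPM of Lgr5 and Lgr6 and the summed CPM of 14 hair follicle and epidermis genes and 24 skeletal muscle fibre genes in each WT (blue) and Mkx-/- (red) library; each panel has its own vertical axis from 0. Within the Mkx-/- group the hair sum (122, 96.7 and 175 CPM) ranks the libraries as Lgr5 does, while the library with the highest muscle sum (3461 CPM) is also highest in Lgr6 and the one with the lowest (698 CPM) is highest in Lgr5.

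The remaining marker lists also differed between the groups in part, where over all genes tested 1.89% were called higher and 1.33% lower. Endothelial genes summed to 70.3 to 86.3 CPM in WT and 120 to 180 in Mkx-/- libraries, with Erg called higher among 10 tested. Schwann cell genes summed to 8260 to 10896 CPM in WT and 12796 to 23745 in Mkx-/- libraries, with 0 of 9 called by edgeR. In 8 of the 9 all Mkx-/- libraries lay above all WT libraries, against 14.6% of all genes tested. Macrophage and leukocyte genes summed to 383 to 433 CPM in WT and 251 to 306 in Mkx-/- libraries, with 0 of 7 called by edgeR. In 7 of these 7 all Mkx-/- libraries lay below all WT libraries, against 13.6% of all genes tested. Aif1 among them reached the filter level in 3 WT and 0 Mkx-/- libraries, so this count is a description only. Osteoblast and osteocyte genes were low, at 3.07 to 5.45 CPM in WT and 6.67 to 7.29 in Mkx-/- libraries, with 2 of the 9 tested and 0 called.

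The cartilage genes summed to 4776 to 7338 CPM in WT and 2561 to 4319 in Mkx-/- libraries. Most of these sums lay in Col11a2 (means of 4012 in WT and 1216 in Mkx-/-), Col11a1 (1302 and 1087) and Col2a1 (748 and 705). Of the 11 tested, Acan and Matn3 were called higher and Col11a2 lower, against 1.89% and 1.33% of all genes tested. All Mkx-/- libraries lay above all WT libraries in 4 of the 11 and below in 2, against 14.6% and 13.6% of all genes. The synovial joint genes summed to 1105 to 1444 CPM in WT and 469 to 867 in Mkx-/- libraries, with Prg4 called lower among 4 tested. Prg4 held most of these sums (means of 1257 in WT and 570 in Mkx-/-), and 3 of the 4 had a log2 fold change above 0. Of 12 tendon genes, Thbs4 was called higher and Mkx lower, against 1.89% and 1.33% of all genes tested. Their median log2 fold change was -0.22, with 4 of the 12 above 0. The part of these cell types in the rise of Lgr5 and Lgr6 was not tested.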

How the data were processed

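RNA from tail tendon of 3 WT and 3 Mkx-/- samples was made into libraries with the Ion Total RNA-Seq Kit and sequenced on an Ion Proton. Per the study's methods, reads were cleaned of adaptors and low-quality bases and aligned to mm9 with MapSplice. The authors deposited raw read counts per gene symbol. The program, annotation and strand setting used for counting are not given in the sources used here.

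The counts were tested with edgeR 4.0.16 in R 4.3.3: filterByExpr, TMM scaling, a quasi-likelihood fit with genotype as the only term, and Benjamini-Hochberg adjustment over all 14550 genes tested. A gene was called when its adjusted p was below 0.05 and its log2 fold change was beyond 1 in either direction. The study's methods set these thresholds for DESeq2. CPM are counts over TMM-scaled library sizes. Exon-union and coding lengths came from GENCODE vM1. Intervals and the floor of 3 counts cover counting error only. The scripts were tested on simulated counts. Replicate libraries differed by more than sampling noise (chi-square per degree of freedom 7.98 to 39.8).

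The members and lists were chosen with earlier results of these data known. Named genes were Mkx, the 9 members, the called genes of each list or up to 4 with the smallest p, defining markers, the 5 genes most like Lgr5 (Pearson r of log2 CPM with a prior count of 2) and its 3 neighbours on each side by fold change. Alternatives were DESeq2 1.42.0, other scaling and filters, removal of muscle genes, a robust fit, the replicate number as a block, and leaving out each library.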

Additional observations from a re-analysis of the deposited data

How the results depend on the processing

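Lgr6 was called higher in each fit that could test it, with a log2 fold change from 2.35 to 2.93 and an adjusted p from 8.54e-09 to 0.0333. The number of members called higher, Lgr5 not counted, was 1 with all 6 libraries and 1 without any single library. It was 2 with DESeq2, 2 with scaling by library totals only and 2 with all genes of at least 1 count in any library, as Rspo1 joined Lgr6 (log2 fold change 2.56, 2.79 and 2.54). Rspo1 reached the filter level in 0 WT and 3 Mkx-/- libraries, so its call is no support for a second member. Lgr6 reached it in 2 WT and 3 Mkx-/- libraries, so it too was tested through the group where it is high. The numbers of members called higher are thus a description only. That number was 0 among genes with at least 10 counts in every library, a filter that Lgr5, Lgr6 and Rspo1 did not pass. The number called lower was 0 in all fits. Wnt/beta-catenin targets called higher were 2 instead of 1 with scaling by library totals only, and 0 to 1 without a single library. Lgr4 turned from -0.08 to 0.17 with library totals only and ranged from -0.21 to 0.07 (0.0701 without WT replicate 1) when a single library was left out, and the cause was not tested. Znrf3 ranged from -0.42 to -0.09 with no call. Over all genes the calls were 386 higher and 273 lower with DESeq2, against 275 and 193 with edgeR. They were 541 and 322 with genes of at least 1 count, 711 and 154 with library totals only, 119 and 113 when WT replicate 2 was left out, 103 and 112 when WT replicate 3 was, 155 and 130 for Mkx-/- replicate 2, and 177 and 121 for Mkx-/- replicate 3. Deviations from the group means of same-numbered libraries correlated at 0.03, -0.21 and 0.30, and replicate 3 alone matched its own number best. With 3 libraries per group this cannot decide whether the replicate numbers pair the libraries. With the replicate number as a block, 1 member was called higher, 0 lower, and 195 and 136 genes over the whole table. Depth limits Rspo2, Rspo3, Rspo4 and Rnf43, and the WT level of Lgr5.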
